A study of Homo sapiens with 12 samples.

Results

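Replication factor C (RFC), the clamp loader of DNA replication, was represented in a dual-sgRNA CRISPR interference (CRISPRi) library by all 5 of its subunits, RFC1, RFC2, RFC3, RFC4 and RFC5. Its constructs were taken as those with an sgRNA of one of these genes in either position. This gave 10 of 1141 sgRNAs and 22720 of 1301881 constructs, for 5 of the 543 targeted genes. Each subunit had 220 constructs that paired it with a non-targeting sgRNA, and these gave its single-knockdown values. A further 100 constructs carried an RFC sgRNA in both positions.

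All constructs were carried by 1 CRISPRi line of K562, a human chronic myelogenous leukemia line, and were counted by sequencing the sgRNA cassettes from genomic DNA. The study mapped how pairs of knockdowns change growth and the response to niraparib, an inhibitor of PARP1 and PARP2, and was run as 2 screens, named 2023 and 2022. In the 2023 niraparib arm, cells received 2 µM of drug, raised to 3 µM from the second day, for 4 days in all, and were harvested on day 19 after transduction. In the 2022 niraparib arm, cells received 2 µM for 3 days and were harvested on day 18. The reference arms of both screens received the vehicle DMSO and were harvested on the same days as their niraparib arms. The T0 libraries were taken on day 9, when treatment began. Each of these 6 groups held 2 biological replicates, and a T0 sample came from every replicate culture before its cells were split into the niraparib and reference arms. Knockdown and expression were not measured in these files, so an sgRNA stands for its target only as far as it repressed it.

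RFC opens the ring-shaped clamp PCNA with ATP and closes it around DNA at primer ends, where PCNA tethers DNA polymerases, ligases and other factors. RFC1 is the large subunit of this loader. RFC2, RFC3, RFC4 and RFC5 are small subunits that also serve alternative loaders, in which RFC1 is replaced by RAD17 (loader of the checkpoint clamp of RAD9A, HUS1 and RAD1), by CHTF18 (a PCNA loader linked to sister chromatid cohesion) or by ATAD5 (which unloads PCNA). PARP1 and PARP2 sense DNA strand breaks, and unligated gaps between Okazaki fragments are among the sites where PARP1 acts during replication.

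The deposited names of the 10 sgRNAs give a gene, a strand and a position, and their genome build is not given in the sources used here. The sgRNAs of RFC1 lie at 39367730 on the plus strand and at 39367932 on the minus strand, 202 bases apart. Those of RFC2 are named for 73668361 and 73668604, both on the minus strand and 243 bases apart. The other pairs lie closer together: 26 bases apart for RFC3 (34392349 on the plus strand, 34392375 on the minus strand), 10 for RFC4 (186524029 and 186524039, minus strand) and 24 for RFC5 (118454562 and 118454586, minus strand). The sgRNA with the lower position is called the first sgRNA of its gene below.

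CRISPRi acts near the start of transcription, and a stretch around each gene start is given here. The sgRNA positions were not compared with these stretches, so the sites of repression may lie outside them. The sequences below come from RefSeq for GRCh38.p14, in which 5 of 5 subunits matched by symbol. They run 5′ to 3′ on the gene's own strand, from 150 bases before the start to 30 bases after it. Capitals mark the E2F-type letters GCGGGAA or, on the other strand, TTCCCGC. E2F factors are known to drive genes of DNA replication.
RFC1 (chr4:39366333-39366512, minus strand): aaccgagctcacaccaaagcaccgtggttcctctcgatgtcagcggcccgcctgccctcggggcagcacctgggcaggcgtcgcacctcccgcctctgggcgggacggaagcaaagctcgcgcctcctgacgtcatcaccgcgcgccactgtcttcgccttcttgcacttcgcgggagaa
RFC2 (chr7:74254370-74254549, minus strand): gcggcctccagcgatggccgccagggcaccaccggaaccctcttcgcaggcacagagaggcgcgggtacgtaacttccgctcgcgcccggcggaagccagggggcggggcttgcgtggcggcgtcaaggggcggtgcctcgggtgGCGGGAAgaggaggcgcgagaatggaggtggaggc
RFC3 (chr13:33817999-33818178, plus strand): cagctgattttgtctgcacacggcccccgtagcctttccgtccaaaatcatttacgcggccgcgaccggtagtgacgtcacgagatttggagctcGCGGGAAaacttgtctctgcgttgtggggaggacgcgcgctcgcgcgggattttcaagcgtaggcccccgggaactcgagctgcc
RFC4 (chr3:186806453-186806632, minus strand): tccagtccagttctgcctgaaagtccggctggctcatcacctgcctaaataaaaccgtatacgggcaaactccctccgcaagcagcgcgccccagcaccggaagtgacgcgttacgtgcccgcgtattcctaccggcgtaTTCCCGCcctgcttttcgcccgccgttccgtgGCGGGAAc
RFC5 (chr12:118016553-118016732, plus strand): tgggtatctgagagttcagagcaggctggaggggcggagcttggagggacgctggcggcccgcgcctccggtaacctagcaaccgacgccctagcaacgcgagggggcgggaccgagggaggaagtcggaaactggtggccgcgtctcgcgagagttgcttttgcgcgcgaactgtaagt

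The letters were found in the windows of 3 of the 5 subunits, RFC2, RFC3 and RFC4. RFC4 held them at 2 places, and these windows of RFC1 and RFC5 did not hold them. Among 22114 genes with a single promoter in the table, 4.12% of windows of the same length held them on either strand, as did 14.4% of the 284 library genes found there. A match of letters is a description of the sequence and was not tied to any measurement here.

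The 12 libraries held 182552286 to 460723933 reads each. The single-knockdown constructs of a subunit summed to 6811 reads at the least, for RFC3 in a niraparib library, and to 140448 at the most, for RFC2 in a reference library. Levels below are log2 ratios of reads per construct against the 3025 constructs with 2 non-targeting sgRNAs of the same library, so that 0 is the level of the controls. Fitted as genes, the 55 non-targeting sgRNAs ran from -0.06 to 0.08 in growth and from -0.09 to 0.05 in response. Of these 55, 3 passed the growth test and 2 the response test. The share of all genes or gene pairs called is given as the background against which the subunits are read.

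The 5 subunits ended at very different levels, and each one ended lowest under niraparib. RFC3 constructs were at -3.39 and -3.34 in the 2023 niraparib libraries and -3.09 and -3.11 in the 2022 ones, against -3.00 and -2.99 (2023) and -2.94 and -2.81 (2022) in reference and -0.98, -0.98, -1.14 and -1.16 at T0. RFC1 was at -2.09 and -2.10 (2023) and -1.96 and -1.88 (2022) under niraparib, against -0.91 and -0.88 (2023) and -1.06 and -0.85 (2022) in reference and -0.46, -0.45, -0.48 and -0.47 at T0. For both genes, the 4 niraparib libraries were lower than the 4 reference libraries, without overlap, but the gap was wide for RFC1 and narrow for RFC3.

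RFC4 reached the same niraparib levels as RFC1 from lower reference levels. Its constructs were at -2.09 and -2.10 (2023) and -1.97 and -1.89 (2022) under niraparib, against -1.31 and -1.29 (2023) and -1.43 and -1.18 (2022) in reference and -0.49, -0.48, -0.49 and -0.50 at T0. RFC5 was at -1.39 and -1.38 (2023) and -1.19 and -1.18 (2022) under niraparib, against -0.70, -0.70, -0.81 and -0.54 in reference and 0.20, 0.21, 0.22 and 0.23 at T0, above the controls. RFC2 stayed nearest to the controls, at -0.52 and -0.46 (2023) and -0.46 and -0.47 (2022) under niraparib, against -0.09, -0.06, -0.23 and -0.13 in reference and -0.02, -0.01, -0.04 and -0.04 at T0. The libraries of the 3 arms did not overlap for any of these 3 genes. The share of all genes without overlap between arms is not given here, so the lack of overlap is not read as particular to the subunits.

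The level at T0 joins what happened in the days before T0 with how often each construct stood in the library, which was not measured in these files. The sgRNAs of RFC4 show that these levels need not follow the gene: at T0 the first was at -1.37 to -1.31 and the second at 0.04 to 0.05. Growth and response below are changes between libraries of one culture and do not hold the starting share.

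**Figure D1:**
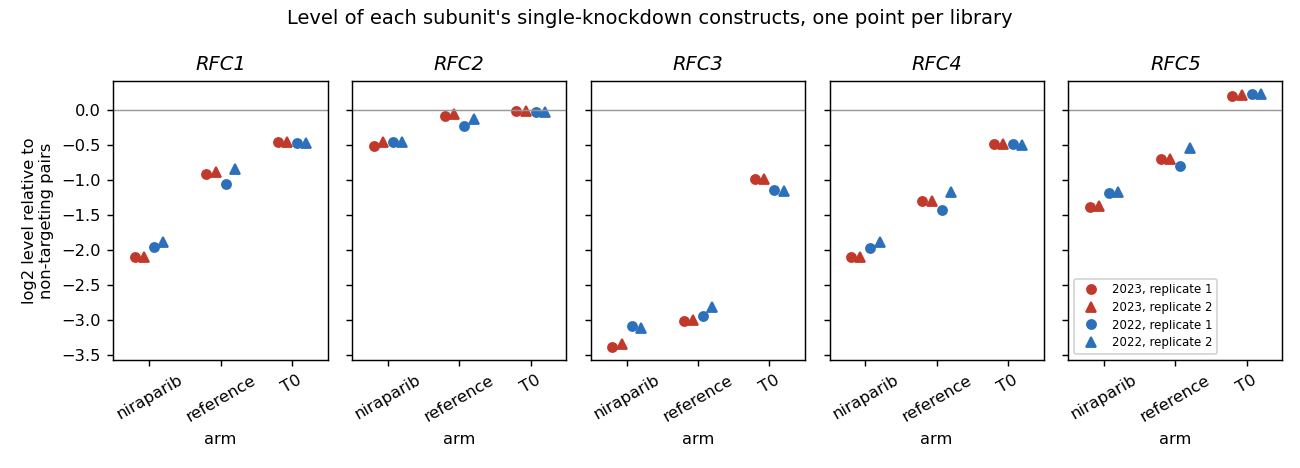
Log2 level of the single-knockdown constructs of each subunit against non-targeting pairs (vertical axis) in the niraparib, reference and T0 arms (horizontal axis), 1 point per library, coloured by screen. RFC3 is lowest in both endpoint arms with little distance between them, RFC1 shows the widest distance between the niraparib and reference arms, and RFC2 lies nearest to 0.

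Without drug, constructs of every subunit fell relative to non-targeting pairs, most for RFC3 and least for RFC2. Growth was the log2 change of the reference endpoint over T0, tested for all genes with edgeR's quasi-likelihood test and Benjamini-Hochberg adjustment. The change was -1.87 ± 0.18 for RFC3 (SD, n = 4 cultures; edgeR adjusted p = 2.87e-09) and -0.90 ± 0.10 for RFC5 (edgeR adjusted p = 1.23e-06). It was -0.81 ± 0.11 for RFC4 (edgeR adjusted p = 1.37e-06) and -0.46 ± 0.09 for RFC1 (edgeR adjusted p = 8.82e-06).

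For RFC2 it was -0.10 ± 0.06 (SD, n = 4; edgeR adjusted p = 0.00343), which is close to the lowest non-targeting sgRNA, at -0.06. All 5 subunits were called lower, in a library in which 81% of the 543 genes were. Counted from the lowest, RFC3 had rank 33, RFC5 rank 168, RFC4 rank 190, RFC1 rank 272 and RFC2 rank 404, and the median gene was at -0.46. Scaled on all genes by TMM instead of on the non-targeting pairs, the median growth of all genes moved by 0.45 and the calls to 47.7% lower and 46.0% higher, against 81% lower and 4.24% higher. Under that scaling RFC1 was at -0.0062 (edgeR adjusted p = 0.843) and RFC2 at 0.35 in growth, a change of sign, while RFC3, RFC4 and RFC5 remained lower.

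Every subunit also lost ground under niraparib beyond its loss in reference, and here RFC1, the subunit of the replicative loader alone, gave the largest change. The response was the log2 change of the niraparib over the reference endpoint, in the same edgeR fit. It was -1.08 ± 0.15 for RFC1 (SD, n = 4; edgeR adjusted p = 6.34e-07), -0.71 ± 0.12 for RFC4 (edgeR adjusted p = 6.66e-06) and -0.60 ± 0.14 for RFC5 (edgeR adjusted p = 2.02e-05). It was -0.35 ± 0.09 for RFC2 (edgeR adjusted p = 8.50e-06) and -0.29 ± 0.11 for RFC3 (edgeR adjusted p = 8.71e-05).

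All 4 cultures of each subunit were below 0. All 5 subunits were called lower in response, where 35.7% of genes were called lower and 44.2% higher. Counted from the lowest of 543, RFC1 had rank 20, RFC4 rank 38, RFC5 rank 44, RFC2 rank 78 and RFC3 rank 91. These responses kept their sign and their call under TMM, where they ran from -1.10 for RFC1 to -0.31 for RFC3. Niraparib over T0, the sum of both changes, was lower for all 5, at -2.16 for RFC3, -1.54 for RFC1, -1.52 for RFC4, -1.50 for RFC5 and -0.45 for RFC2, among 82.1% of genes called lower and 5.52% higher. Under TMM, RFC2 was at -0.0091 in niraparib over T0 (adjusted p = 0.645).

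The order of the subunits was not the same in growth and in response, and the subunits were set against each other within each culture to test this. The difference between 2 genes was tested with limma over the 4 cultures and adjusted over all 147153 pairs of genes, of which 86.1% differed in growth and 82.8% in response. In growth, all 10 subunit pairs differed. RFC1 minus RFC3 was 1.41 (95% interval 1.21 to 1.61) and RFC2 minus RFC3 was 1.77 (1.55 to 1.99), so RFC3 was the lower gene of both pairs. The smallest difference was RFC4 minus RFC5, at 0.09 (0.02 to 0.15; limma adjusted p = 0.0217), and with the first sgRNA of each gene alone it was -0.07.

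In response, 9 of 10 pairs differed. RFC1 minus RFC3 was -0.79 (95% interval -0.86 to -0.72), RFC1 minus RFC2 was -0.74 (-0.82 to -0.65), RFC1 minus RFC5 was -0.49 (-0.56 to -0.41) and RFC1 minus RFC4 was -0.37 (-0.44 to -0.31). RFC2 and RFC3 were not told apart, at -0.06 (RFC2 minus RFC3; 95% interval -0.109 to -0.00319, limma adjusted p = 0.0501), although their growth differed by 1.77. The place of RFC3 in this order depended on the scale.

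The deposited phenotypes divide each change by a constant of the size of cell doublings, 7.19 to 8.04 for reference and 4.98 to 5.40 for niraparib, and the niraparib change can be scaled up to the constant of the reference arm of its culture. On that scale the responses were -1.82 for RFC1, -1.43 for RFC4, -1.33 for RFC3, -1.31 for RFC5 and -0.56 for RFC2, each passing the test, with a median of -0.20 over all genes. RFC2 minus RFC3 became 0.77 (adjusted p = 0.00259), and RFC3 was not told apart from RFC5 (-0.02, adjusted p = 0.775) or RFC4 (0.11, adjusted p = 0.134). RFC1 gave the lowest response and RFC3 the lowest growth on both scales.

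**Figure D2:**
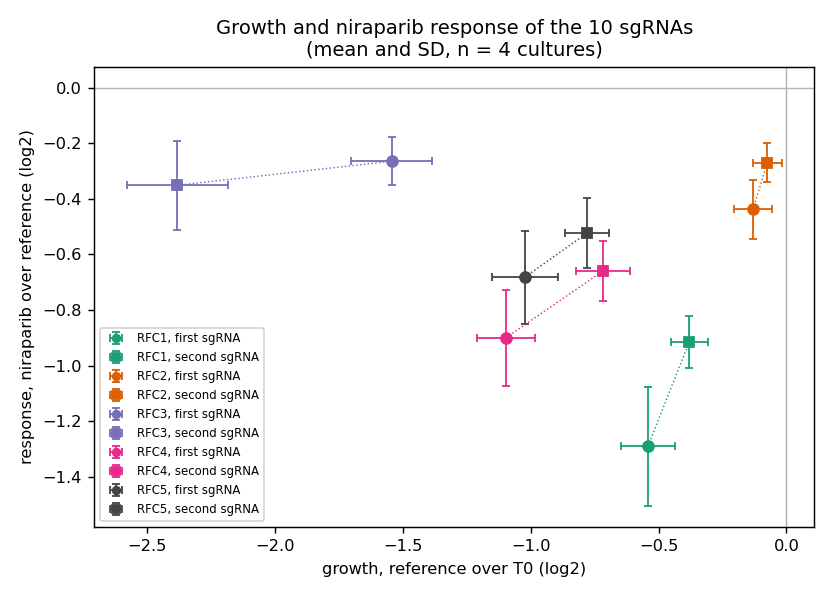
Growth without drug (horizontal axis, log2 reference over T0) and response (vertical axis, log2 niraparib over reference) of the 10 sgRNAs, as mean and SD over 4 cultures, with dotted lines joining the sgRNAs of one gene. RFC3 lies far left with small responses, RFC1 lies lowest with moderate growth loss, RFC4 and RFC5 lie between them, and RFC2 lies near the origin.

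The sgRNAs of a gene moved the same way but not by the same amount. All 10 sgRNAs were called lower in growth and all 10 in response, against 76.9% and 32.7% of the 1086 targeting sgRNAs. The second sgRNA of RFC3 gave -2.38 in growth and its first -1.54, while their responses were -0.35 and -0.27. For RFC1 the first sgRNA was the stronger one in both, with -0.54 in growth and -1.29 in response, against -0.38 and -0.92 for the second. In growth this order turned in the first position, at -0.48 for the first sgRNA and -0.58 for the second.

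For RFC4, RFC5 and RFC2 the first sgRNA gave the larger change in growth and response over both positions, but in the first position alone growth was -1.05 for the first RFC5 sgRNA and -1.22 for the second. Growth was -1.10 and -0.72 for the sgRNAs of RFC4, -1.02 and -0.78 for RFC5, and -0.13 and -0.07 for RFC2. Response was -0.90 and -0.66 for RFC4, -0.68 and -0.52 for RFC5, and -0.44 and -0.27 for RFC2. The position in the construct mattered most for the second sgRNAs of RFC5 and RFC1: growth was -1.22 in the first position and -0.54 in the second for RFC5, and -0.58 and -0.25 for RFC1. Their responses in the first and second position were -0.43 and -0.57 for RFC5 and -0.93 and -0.91 for RFC1.

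In growth, 1 subunit, RFC3, was called different between the screens. It was -2.02 in 2023 and -1.73 in 2022, a difference of -0.29 (adjusted p = 0.0107), where 30% of genes were called lower in 2023 and 1.1% higher. The call was lost without 2023 replicate 1 (-0.28) or 2023 replicate 2 (-0.29), fits that leave 1 sample in each group of that screen. The harvest came 1 day later in 2023. For the other 4 subunits the growth difference was between -0.00 and 0.08.

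Responses were lower in 2023, the screen with the longer and higher dosing, for all 5 subunits. RFC1 was at -1.20 in 2023 and -0.97 in 2022, RFC4 at -0.80 and -0.63, RFC5 at -0.68 and -0.51, RFC2 at -0.41 and -0.28, and RFC3 at -0.37 and -0.22. None of these 5 differences was called by edgeR (adjusted p 0.221 to 0.339), where 0.368% of genes were called lower in 2023. At an unadjusted p under 0.05, RFC1, RFC2 and RFC3 passed in the edgeR fit across all genes, and DESeq2 called 2 of 5, RFC1 and RFC2. The shares of all genes that passed in either way are not given here, so these counts are not read as particular to the subunits. With 1 culture left out at a time, the difference stayed below 0 for each subunit.

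The small single-knockdown effect of RFC2 did not carry over to constructs with both of its sgRNAs. These constructs were at -2.60 and -2.54 (2023) and -1.87 and -1.94 (2022) in niraparib over T0, and at -1.61 and -1.09 (2023) and -1.34 and -1.32 (2022) in reference over T0. With a non-targeting partner, the first and second sgRNA were at -0.57 and -0.36 under niraparib and at -0.13 and -0.08 in reference. Each value is the mean of the 2 orders of the sgRNAs. The constructs with both sgRNAs were below the sum of the single values in 4 of 4 cultures in each arm, and both sgRNAs minus the sum was -1.32 ± 0.32 under niraparib and -1.13 ± 0.24 in reference (SD, n = 4).

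Among 520 genes with such constructs, RFC2 had rank 11 from the lowest for this excess under niraparib and rank 24 in reference, against a median of 0.06 in both arms. With the orders taken apart, a comparison added after the data were seen, RFC2 was at -2.47 ± 0.58 and -2.01 ± 0.23 under niraparib and at -1.37 ± 0.25 and -1.31 ± 0.33 in reference (first sgRNA in the first position, then in the second). No test was run on these values, which rest on 2 constructs with 127 to 252 reads each in the T0 libraries. An RFC2 sgRNA placed in both positions gave -0.33 (first sgRNA) and -0.19 (second) under niraparib, and 0.03 and -0.10 in reference. Constructs with a repeated RFC2 sgRNA thus stayed near the single values, and those with both sgRNAs lay far below them.

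The other subunits gave no such excess in both arms. Constructs with both sgRNAs of RFC4 were at -1.31 ± 0.22 under niraparib and -0.67 ± 0.22 in reference. They were less depleted than its first sgRNA alone (-2.07 and -1.13) and near its second (-1.42 and -0.75). Its target positions lie 10 bases apart, and the part of this spacing was not tested. Both sgRNAs of RFC3 gave -2.83 ± 0.26 and -2.96 ± 0.74, of RFC5 -2.58 ± 0.27 and -1.81 ± 0.20, and of RFC1 -2.26 ± 0.99 and -1.32 ± 0.38 (niraparib, then reference). For RFC1 under niraparib, 2022 replicate 1 was at -0.77 and the other cultures at -2.80 to -2.73.

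**Figure D3:**
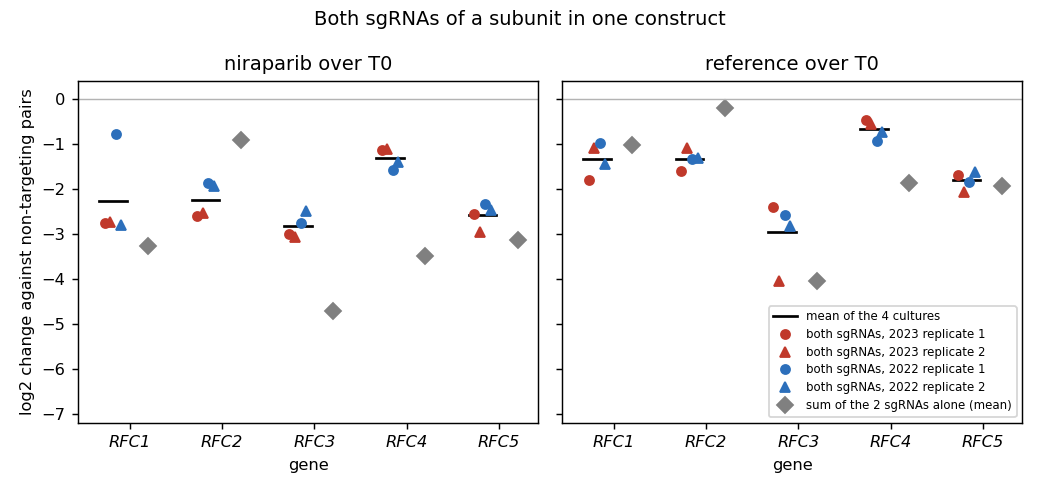
Log2 change over T0 of constructs with both sgRNAs of a subunit (points: 4 cultures; black line: their mean) beside the sum of the changes of its sgRNAs alone (grey diamonds: mean of 4 cultures), for niraparib (left) and reference (right). For RFC2 all points lie below the diamond in both arms, and for RFC4 all lie above it, as do those of RFC3, of which 1 reference point nearly touches it.

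For pairs of different genes, an interaction score gave the log2 change of the pair beyond the curve fitted to all partners of each sgRNA, averaged over sgRNAs and both orders. A score below 0 means more depletion than the curve predicts, and above 0 less. Its single-knockdown values are means of log2 changes over constructs, which differ a little from the fit above, for instance -2.03 and -1.87 for the growth of RFC3. Scores were tested with limma over the 4 cultures and adjusted over 147044 gene pairs.

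No pair of 2 RFC subunits was called by limma in either arm or in the difference between arms. At an unadjusted p under 0.05 were 2 of 10 pairs under niraparib, 2 in reference and 3 in the difference. Of the 541 or 542 partners tested per subunit, 88 (RFC2) to 188 (RFC1) passed that threshold under niraparib. In reference 46 (RFC2) to 150 (RFC3) did, and in the difference 49 (RFC2) to 130 (RFC1). The 10 scores ran from -0.00 to 0.33 under niraparib and from -0.10 to 0.24 in reference. The highest was RFC1 with RFC3 under niraparib, at 0.33 ± 0.30 (SD, n = 4; limma adjusted p = 0.144), and the nearest to the threshold was RFC2 with RFC4, at 0.23 ± 0.09 (adjusted p = 0.0560). Under niraparib, other settings of the score called 0 to 3 of the 10 pairs, with 1 or more in 3 settings.

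The change of a pair can also be set beside the sum of its singles, without the curve. RFC4 with RFC5 constructs were at -2.15 ± 0.17 under niraparib and -1.45 ± 0.20 in reference, where the singles were -1.74 and -0.94 for RFC4 and -1.57 and -0.97 for RFC5. RFC1 with RFC3 was at -2.34 ± 0.23 under niraparib and -1.84 ± 0.11 in reference, where RFC3 alone was at -2.35 and -2.03. RFC1 with RFC2 was at -1.61 ± 0.15 and -0.57 ± 0.10, where RFC1 alone was at -1.64 and -0.51. Under niraparib, pair minus sum ran from 0.38 to 1.66 over the 10 subunit pairs, and it was in that range for RFC1 with other genes too, such as CLSPN (1.40) and RPA1 (1.24). In reference, pair minus sum was within its spread of 0 for RFC1 with RFC2 (0.04 ± 0.07) and RFC2 with RFC5 (0.06 ± 0.13). For the other subunit pairs it was above 0 by more than its SD, from 0.17 ± 0.16 (RFC2 with RFC4) to 1.14 ± 0.23 (RFC3 with RFC4).

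Among pairs of a subunit with another gene, 172 of 2699 were called under niraparib (6.37%, against 5.12% of all gene pairs) and 60 of 2699 in reference (2.22%, against 2.35%). RFC5 had the most under niraparib, with 30 lower and 16 higher, followed by RFC1 with 30 lower and 12 higher. RFC4 had 15 lower and 21 higher, RFC3 7 lower and 21 higher, and RFC2 15 lower and 5 higher. Over all gene pairs under niraparib, 2.63% were lower and 2.49% higher. RFC1 with NUP62 was not tested. In reference the counts lower and higher were 7 and 2 for RFC1, 3 and 0 for RFC2, 6 and 11 for RFC3, 11 and 5 for RFC4 and 13 and 2 for RFC5, where 1.28% of all gene pairs were lower and 1.07% higher.

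Without drug, the partner shared by all 5 subunits was BRCA2, a central factor of homologous recombination. Its reference scores were -0.63 ± 0.06 with RFC1, -0.30 ± 0.02 with RFC2, -0.48 ± 0.19 with RFC3, -0.67 ± 0.25 with RFC4 and -0.67 ± 0.25 with RFC5 (SD, n = 4; limma adjusted p 0.00634 to 0.0342). In every culture the score with each subunit was below 0, from -0.95 to -0.28. The pair constructs of RFC1 and BRCA2 were at -2.27 ± 0.63 in reference, where RFC1 alone was at -0.51 and BRCA2 alone at -1.41. Against the sum of the singles, the BRCA2 pair in reference was at -0.35 ± 0.06 for RFC1, -0.21 ± 0.07 for RFC2, -0.16 ± 0.42 for RFC4 and -0.18 ± 0.41 for RFC5. For RFC3 it was at 0.47 ± 0.25, less depleted than the sum although its score was below the curve.

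Under niraparib the scores with BRCA2 ran from -0.23 to 0.31 and none was called. BRCA2 knockdown alone was there at -4.42, and the pair constructs were at -4.13 to -4.89. Their 8 constructs held 114 to 481 reads per niraparib library, against 172 to 2153 in reference libraries and 889 to 2859 at T0, and some constructs had no read under niraparib. The niraparib minus reference score was higher for RFC4 with BRCA2, by 0.98 ± 0.13 (adjusted p = 0.00728), and ran from 0.15 to 0.65 with the other subunits, which were not called. The RFC4 call held in 1 of 4 fits with 1 culture left out and in 4 of 8 other settings. It was lost with a straight line, with a higher T0 minimum and with each order alone.

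Other partners were shared by 3 subunits in reference, all lower than the curve. UBE2T, the ubiquitin-conjugating enzyme of the Fanconi anemia pathway, scored -0.33 with RFC2, -0.47 with RFC4 and -0.35 with RFC5. OBFC1 (STN1), of the CST complex that acts with DNA polymerase alpha at telomeres, scored -0.36 with RFC1, -0.45 with RFC4 and -0.33 with RFC5. CHTF18, the alternative loader subunit, scored -0.45 with RFC1, -0.28 with RFC3 and -0.33 with RFC5.

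RFC3 was the subunit with more higher than lower scores in reference. The highest were RPA2, a subunit of the single-strand binding protein RPA, at 0.54 ± 0.05, RBM8A, of the exon junction complex, at 0.49 ± 0.17, and HJURP, which deposits centromeric histone CENP-A, at 0.42 ± 0.19. In reference, RFC3 with RPA2 was at -1.53 and -1.46 (2023) and -1.36 and -1.05 (2022), less depleted than RFC3 alone at -2.03. The reference interactions of RFC2 were 3 lower ones, with UBE2T, WDR48 (-0.31, a cofactor of the PCNA deubiquitinase USP1) and BRCA2.

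Under niraparib, PARP1, the target of the drug, gave RFC1 and RFC4 their largest named scores. RBM8A was larger with RFC5 (0.73) and UBE2T larger in size with RFC2 (-0.48), and for RFC3 it was RPA1 (0.66). The scores were 1.28, 1.26 (2023), 1.10 and 1.02 (2022) with RFC1, 0.72, 0.94, 0.74 and 0.80 with RFC4, 0.76, 0.85, 0.56 and 0.65 with RFC5, and 0.47, 0.34, 0.44 and 0.36 with RFC2. With limma these 4 were called higher (adjusted p 0.00117 to 0.00970), and the score with RFC3 was 0.20 ± 0.07 (adjusted p = 0.0687).

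PARP1 knockdown alone was at 1.38 in niraparib over T0 and at -0.76 in reference over T0. The pair of RFC1 and PARP1 was at 0.32 and 0.32 (2023) and 0.24 and 0.31 (2022) under niraparib, where RFC1 alone was at -1.64 and the sum of the singles at -0.25. In reference it was at -1.21, -0.99, -1.77 and -0.91, against a sum of -1.27. All niraparib values of this pair were above the controls and all reference values below them.

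The pairs of RFC4 and of RFC5 with PARP1 were near the controls under niraparib, at -0.23 ± 0.10 and -0.14 ± 0.05, where these subunits alone were at -1.74 and -1.57. The sums of the singles were -0.36 for RFC4 and -0.18 for RFC5. Pair minus sum was 0.13 ± 0.12 for RFC4 and 0.04 ± 0.06 for RFC5. RFC2 with PARP1 was at 1.04 ± 0.07, against a sum of 0.92 (pair minus sum 0.11 ± 0.09). These pairs of RFC2, RFC4 and RFC5 thus lay close to their sums, and their called scores above are measured from the curve. RFC3 with PARP1 was at -1.59 ± 0.26, below its sum of -0.97. The niraparib change relative to reference was positive in all 5 PARP1 pairs, from 0.79 ± 0.09 with RFC3 to 1.89 ± 0.36 with RFC2. Every subunit alone was negative in this change, and PARP1 alone was at 2.14, above all 5 pairs.

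Niraparib minus reference scores with PARP1 were 1.33 ± 0.20 for RFC1, 1.05 ± 0.11 for RFC4 and 0.98 ± 0.10 for RFC5 (limma adjusted p 0.00541 to 0.00691), and 0.46 ± 0.14 for RFC2 and 0.40 ± 0.19 for RFC3 (adjusted p 0.0607 and 0.127). These 3 calls held under all alternative scores tried, each measured from a fitted curve or line. With 3 of the 4 cultures they were kept in 2 of 4 cases for RFC1 and RFC4 and in 3 of 4 for RFC5. Pair minus sum in reference was 0.05 ± 0.14 for RFC1, 0.11 ± 0.26 for RFC4 and 0.06 ± 0.16 for RFC5. Under niraparib it was higher for RFC1 and about the same for RFC4 and RFC5. For RFC3 it was 0.40 ± 0.40 in reference and -0.62 ± 0.16 under niraparib, opposite in direction to its score difference. The subunits without a call were RFC2 and RFC3, which have the smallest unscaled responses alone.

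**Figure D4:**
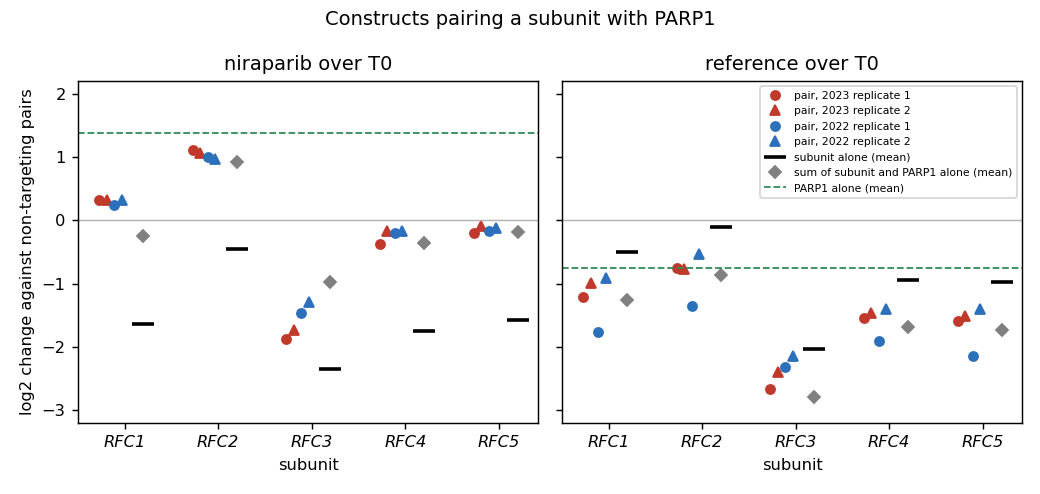
Log2 change over T0 of constructs pairing each subunit with PARP1 (points: 4 cultures), the subunit alone (black bars, mean), the sum of the subunit and PARP1 alone (grey diamonds, mean) and PARP1 alone (dashed line, mean), for niraparib (left) and reference (right). Under niraparib, RFC1 with PARP1 lies above 0 and above the sum, and RFC3 with PARP1 lies below the sum.

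C4orf27 (HPF1), the partner that lets PARP1 modify serines, went the other way under niraparib. It scored lower with RFC1 (-0.59), RFC4 (-0.54), RFC5 (-0.35) and RFC2 (-0.26), and its score with RFC3 was -0.28, not called. LIG3, a DNA ligase of strand break repair, was lower with RFC1 (-0.62 ± 0.12), RFC5 (-0.42 ± 0.02) and RFC2 (-0.34 ± 0.15), and was at -0.22 with RFC4 and 0.14 with RFC3. Its reference scores ran from -0.18 to 0.07.

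The RFC1 and LIG3 pair constructs were at -3.03, -2.81, -2.84 and -2.60 under niraparib and at -0.62, -0.51, -0.90 and -0.43 in reference. The sum of the singles was -2.91 under niraparib, so the pair lay near the sum and below the curve, which for RFC1 lies above the sum. The difference of -0.69 ± 0.06 between the arms was called (adjusted p = 0.00961).

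Higher scores called with 3 of the 5 subunits under niraparib were those of RPA2 and RPA1, subunits of RPA, of CLSPN and of RBM8A. RPA2 was higher with RFC3 (0.62 ± 0.09), RFC4 (0.61 ± 0.17) and RFC5 (0.39 ± 0.14), RPA1 with RFC3 (0.66 ± 0.13), RFC1 (0.46 ± 0.14) and RFC5 (0.34 ± 0.17), and CLSPN, the checkpoint adaptor claspin, with RFC3 (0.54 ± 0.24), RFC4 (0.41 ± 0.15) and RFC5 (0.35 ± 0.10). RBM8A was higher with RFC5 (0.73), RFC4 (0.67) and RFC3 (0.39). The growth of these partners alone was -1.25 for RPA2, -0.69 for RPA1, -1.44 for CLSPN and -0.70 for RBM8A, and their own responses lay between 0.00 and 0.17.

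Lower scores under niraparib were shared by genes of several kinds. EME1, of the MUS81 nuclease, was lower with RFC1 (-0.54), RFC5 (-0.35) and RFC2 (-0.24), and RIF1, which limits end resection, with RFC4 (-0.49), RFC1 (-0.45) and RFC5 (-0.32). DNMT1, the maintenance DNA methyltransferase, was lower with RFC5 (-0.46), RFC2 (-0.44) and RFC4 (-0.38). ZAR1L was lower with RFC1 (-0.40), RFC4 (-0.40), RFC3 (-0.36) and RFC5 (-0.32). DYNLL1 was lower with RFC3, RFC1 and RFC5 (-0.48, -0.38 and -0.34), HSD17B12 with RFC4, RFC1 and RFC5 (-0.47, -0.39 and -0.38).

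Further calls under niraparib were named for RFC4, RFC3 and RFC2. RFC4 scored higher with PLK1, a mitotic kinase (0.78 ± 0.11), and lower with ZNF574 (-0.50 ± 0.12). RFC3 scored higher with BARD1, the partner of BRCA1 (0.53 ± 0.13), but with a straight line in place of the curve this score was -0.07. RFC2 scored lower with SWI5 (-0.36), RAD17 (-0.32) and SLX4 (-0.31), genes of recombination, the checkpoint clamp and nuclease scaffolding, and higher with the mitochondrial protein SSBP1 (0.35 ± 0.04).

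**Figure D5:**
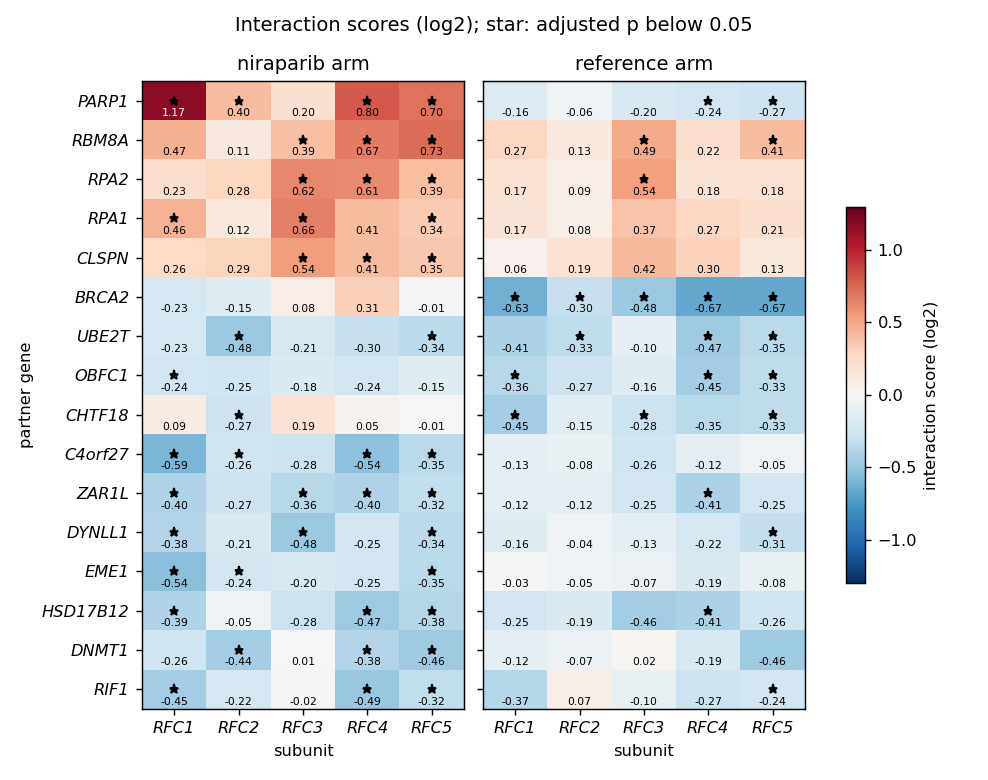
Interaction scores (log2, colour and printed number) of the 5 subunits with the genes called in the same direction with at least 3 of them, for the niraparib arm (left) and the reference arm (right), with stars at a limma adjusted p below 0.05. PARP1 is positive under niraparib and negative in reference, BRCA2 is called with all 5 subunits in reference and with none under niraparib, where its scores have both signs, and RFC2 and RFC3 often lack the call of the others.

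Most of these calls needed all 4 cultures. Of 142 called interactions named by the rule, 19 stayed past the threshold whichever culture was left out, among them PARP1 with RFC1, RFC2, RFC4 and RFC5, LIG3 with RFC1 and RFC5, RPA2 with RFC3 and RFC4, RPA1 with RFC3, C4orf27 with RFC4, and RIF1 with RFC1 and RFC4 under niraparib, and BRCA2 with RFC1 and RPA2 with RFC3 in reference. Another 89 lost the call whichever culture was left out.

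In all, 10 of 2699 differences between the arms were called (0.371%, against 0.468% of all gene pairs), and those with PARP1, BRCA2 and LIG3 are given above. CHTF18 was higher under niraparib than in reference with RFC1, by 0.54 ± 0.12 (limma adjusted p = 0.0355), and with RFC4, by 0.40 ± 0.08 (adjusted p = 0.0491). RAD17 was higher with RFC3, by 0.44 ± 0.04 (adjusted p = 0.0297). NDNL2 (NSMCE3), of the SMC5/6 complex, was lower with RFC1, with a difference of -0.70 ± 0.16, as were LIG3 and the splicing factor RBM42 (-0.35 ± 0.02). Pair minus sum for RFC1 with NDNL2 was 1.03 ± 0.15 under niraparib and 0.87 ± 0.23 in reference, and so was not lower under niraparib. None of these 6 calls held in any of 4 fits with 1 culture left out, and RFC4 with CHTF18 held in 1 of 8 other settings. RFC2 had none by limma, with 49 of 542 at an unadjusted p under 0.05, against 69 (RFC5) to 130 (RFC1) for the other subunits.

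The alternative loaders and the clamp were represented by CHTF18, RAD17 and PCNA. All 3 were called lower in growth and in response alone, where 81% and 35.7% of genes were. PCNA was at -0.04 in growth and -0.06 in response, within the range of the non-targeting sgRNAs. For the counts of list pairs that follow, the background over all gene pairs was 2.63% lower and 2.49% higher under niraparib and 1.28% lower and 1.07% higher in reference. The 15 pairs of these 3 genes with the subunits held 2 lower and 1 higher call under niraparib and 3 lower in reference, with median scores of 0.08 and -0.15. PCNA was called with no subunit, with mean scores over the 5 subunits of 0.05 under niraparib and 0.07 in reference. RFC2, a shared subunit, scored lower under niraparib with CHTF18 (-0.27), RAD17 (-0.32) and HUS1 (-0.25), while RFC3, also shared, scored higher with RAD17 (0.37). Each of these RFC2 calls held in 0 of 4 fits with 1 culture left out, and the RFC3 call in 1 of 4. Pair minus sum under niraparib was -0.04 ± 0.08 for RFC2 with CHTF18 and 0.003 ± 0.14 for RFC2 with RAD17. These pairs thus lay near their sums and below the curve.

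Among 35 pairs with replicative polymerases and primase, 2 were called under niraparib, both higher (POLA1 with RFC5 at 0.44, PRIM2 with RFC4 at 0.40), and 0 in reference, near the 5.12% and 2.35% of all gene pairs called in either direction. The 45 pairs with the ATR checkpoint list, which holds RPA1, RPA2 and RPA3, had 7 higher and 1 lower call under niraparib and 2 higher in reference. The lower call was with ETAA1, an activator of ATR, whose mean score over the 5 subunits was -0.23. The 50 pairs with the helicase and fork list had 7 higher calls under niraparib and 2 higher in reference. Homologous recombination, with 90 pairs, had 8 lower and 3 higher under niraparib and 8 lower and 1 higher in reference, of which 5 were BRCA2. The 75 Fanconi anemia pairs had 6 lower under niraparib and 3 lower in reference, all 3 with UBE2T.

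The lagging-strand and nick-sealing list had 5 lower and 1 higher of 35 under niraparib and 1 lower in reference, and the list of drug targets and ADP-ribose turnover 4 lower (C4orf27) and 4 higher (PARP1) of 25 under niraparib and 2 lower (PARP1) in reference. PCNA ubiquitination had 1 lower of 15 in each arm, mismatch repair 1 lower and 1 higher of 20 under niraparib and 0 in reference, the checkpoint clamp list 3 lower and 1 higher of 20 under niraparib and 2 lower in reference, and CAF-1, with RBBP4 alone, 0 of 5 in each.

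Whole interaction profiles, correlated over about 537 shared partners without the subunits themselves, were alike for RFC4 and RFC5. Their Pearson r was 0.71 under niraparib and 0.63 in reference, where the median over all genes lay between 0.12 and 0.23 for the subunits under niraparib and between 0.11 and 0.19 in reference. RFC5 was the nearest gene to RFC1 in both arms (0.70 and 0.57) and to RFC4 in both arms. Partners share libraries and depth, so these values are descriptions with no p-value.

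In reference, POLD2, a subunit of the replicative DNA polymerase delta, was among the 5 nearest genes of RFC1 (0.55), RFC4 (0.58) and RFC5 (0.58). Under niraparib the neighbours of RFC1 included, after RFC5, XRCC1 (0.70), of single-strand break repair, NAMPT (0.68), which makes NAD, and NAA50 (0.66). Those of RFC2 were RAD9A (0.58), RAD17 (0.58), XRCC2 (0.55), HUS1 (0.54) and SEPSECS (0.54), which include the checkpoint clamp and its loader. RFC5 had LRRC45 (0.73), PALB2 (0.72), TOPBP1 (0.72), RFC4 (0.71) and PRMT5 (0.71).

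In reference, no other subunit was among the 50 genes nearest to RFC3. Its nearest genes were AATF (0.55), SDAD1 (0.55), POP5 (0.51), RSL1D1 (0.49) and PARS2 (0.49), mostly genes of ribosome and RNA processing, and RFC4 had rank 53 (0.39). Under niraparib they were RABGGTB (0.50), SDAD1 (0.50), MCM6 (0.48), POP5 (0.47) and MCM10 (0.46), and RFC4 had rank 8 (0.42) and RFC5 rank 11 (0.41). The subunit nearest to RFC2 in that arm was RFC5, with rank 26 (0.48). RFC3 and RFC2 had the lowest r of the subunit pairs under niraparib, at 0.05, and in reference RFC3 was at 0.16 with both RFC1 and RFC2. RFC3 has the deepest growth defect of the 5 and the fewest reads, and the part of either in its profile was not tested.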

How the data were processed

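The deposited tables hold raw counts of reads per dual-sgRNA construct, counted by the authors, with Bowtie2 2.3.4.1 named in the submitters' processing notes. The deposited phenotype tables hold log2 values per replicate, which were recomputed from the counts to within 1e-09 as the log2 ratio with 10 added, minus an offset, divided by a constant. Only these constants were used further. Cassettes were amplified by PCR without named molecular identifiers, so reads are not independent molecules.

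Single-gene counts were summed over constructs with a non-targeting sgRNA and tested with edgeR 4.0.16 in R 4.3.3 (library size from non-targeting pairs, a block per culture, terms per arm and screen; threshold 0.05). The estimated biological coefficient of variation was 3.06%, on 4 residual degrees of freedom. Tested on simulated data of 598 features, 100% of 100 features changed by 0.25 were called, and 12 of 398 unchanged ones. The simulation used the same spread for all features, no differences between cultures and changes in the reference arms alone. It checks the code and does not measure recovery in the real data. The blocks rest on the labels: same-culture deviations correlated at 0.0341 to 0.0912 over 1195281 constructs.

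Interaction scores used constructs that averaged 30 or more T0 reads, 1 added to each count and degree 2 curves, and limma 3.58.1. DESeq2 1.42.0 was an alternative. Its p-values and those of edgeR measure the spread among cultures within screens. For interactions, named genes were the 4 lowest and 4 highest calls per subunit and arm, those called with at least 3 subunits in 1 direction (at most 12), the 3 largest of each of 12 lists, and for profiles the 5 nearest. Members, lists and rules were chosen with earlier results of these data known. No sgRNA sequences were used here. One neighbour in the interaction profiles is not reported here.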

Additional observations from a re-analysis of the deposited data

Results flagged for a closer look

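The 4 cultures of each value were searched for one far from the rest, which picked 8 of 187 groups of 4, where chance picks about 1 in 20. In reference scores, RFC1 with CHTF18 was at -0.61 in 2023 replicate 1 and at -0.40 to -0.39 in the other cultures, and RFC1 with OBFC1 was at -0.44 in 2023 replicate 2 and at -0.35 to -0.33 in the others. In niraparib scores, RFC2 with SLX4 was at -0.14 in 2022 replicate 1 and at -0.38 to -0.35 in the others, and RFC3 with CLSPN was at 0.90 in 2023 replicate 1 and at 0.37 to 0.46 in the others.

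For log2 changes over T0, constructs with both sgRNAs of RFC1 were at -0.77 under niraparib in 2022 replicate 1 and at -2.80 to -2.73 in the others. Pairs of RFC1 with PARP1 were at 0.24 under niraparib in 2022 replicate 1 and at 0.31 to 0.32 in the others. In reference, 2022 replicate 1 was far below for RFC1 with BRCA2 (-3.22, the others -2.01 to -1.92) and for RFC2 with BRCA2 (-2.62, the others -1.45 to -1.41).

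The growth of RFC3 differed between the screens by -0.29 (2023 minus 2022; edgeR adjusted p = 0.0107), with 4 cultures in all and both 2023 values below both 2022 values.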

How the results depend on the processing

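The response kept its sign and its call for all 5 subunits under TMM and median-of-ratios scaling. With median-of-ratios scaling the response split of all genes was 28.9% lower and 55.8% higher, and scaled to the doublings it was 58.7% and 8.10%. Growth of RFC1 was -0.0062 with TMM, and growth of RFC2 was 0.35 with TMM and 0.29 with median-of-ratios, where genes were called 50.6% lower and 43.5% higher. Niraparib over T0 of RFC2 was -0.0091 and -0.016, with splits of 54.1% and 42.2% for TMM and 54.3% and 40.7% for median-of-ratios. RFC2 growth ran from -0.13 to -0.076 with 1 culture left out. Scaling moves the median of all genes by construction, and for the other changes the cause was not tested.

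The screen difference in growth was 0.0057 for the second RFC4 sgRNA alone, 0.00080 for RFC4 in the second position, 0.023 for RFC4 and 0.020 for RFC5 with TMM, and 0.033 for RFC5 in the second position. With 1 culture left out it ran from -0.059 to 0.14 for RFC1, 0.028 to 0.13 for RFC2, -0.36 to -0.21 for RFC3, -0.13 to 0.13 for RFC4 and -0.13 to 0.12 for RFC5. The screen difference in response was called by DESeq2 for RFC1 (-0.23) and RFC2 (-0.13), 2 in all. With 1 culture left out it ran from -0.30 to -0.17 for RFC1, -0.18 to -0.074 for RFC2, -0.23 to -0.074 for RFC3, -0.26 to -0.082 for RFC4 and -0.30 to -0.050 for RFC5. RFC4 minus RFC5 in growth was -0.074 with first sgRNAs, RFC2 minus RFC3 in response was 0.082 with second sgRNAs and 0.77 scaled to the doublings, and RFC3 minus RFC5 was -0.018 on that scale.

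Counts of interactions moved most with the settings. In reference, 40 lower calls became 99 with 10 added to each count, 10 with the first order alone and 6 with the second, and 20 higher calls became 61, 4 and 7, 79 with a straight line and 13 with a screen term. Under niraparib, 97 lower became 176, 22 and 11, and 75 higher became 136, 26 and 17, and 153 with a straight line. Leaving out 1 culture, which leaves fewer samples, gave 1 to 3 lower and 1 to 2 higher in reference and 14 to 24 lower and 14 to 22 higher under niraparib. Pairs among subunits called under niraparib were 1 with the T0 minimum raised to 100 reads, 3 with 10 added and 1 with a straight line. RFC3 with BARD1 was -0.074 with a straight line, and RFC3 with USP15 was 0.055 at that higher T0 minimum.

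Differential calls, paired by culture, were 3 lower and 7 higher. Without the replicate block they were 6 and 11, with 10 added 23 and 24, with the first order 1 and 3, with the second 0 and 3, divided by the doublings 8 and 11, with a screen term 1 and 4, and with 1 culture left out 0 and 2 to 3. Of the 25 nearest genes, 13 were shared in the 2022 screen alone and 15 in the 2023 screen alone in reference, and 12 and 16 under niraparib. Across 1428 comparisons of 142 called interactions, 636 kept the call, 790 lost it and 2 changed sign. Depth limits pairs of strongly depleted genes, and 4 cultures limit all tests.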
